A study of Mus musculus with 17 samples.

Results

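Parvalbumin (PV) interneuron nuclei were examined in single-nucleus RNA sequencing (sNucDrop-seq) of the mouse neocortex after chronic unpredictable stress (CUS). A nucleus was counted as PV when it held at least 1 UMI of Gad1 or Gad2 and of Erbb4, at least 1 UMI of 2 or more of Pvalb, Btbd11, Eya4, Syt2 and Cntnap4 with Pvalb, Btbd11 or Eya4 among them, no UMI of Sst, Vip, Adarb2 or Rgs9, and at most 1 UMI of Slc17a7. A UMI is a molecular identifier that counts 1 captured RNA molecule. Of 40000 deposited barcodes, 31486 passed the limits of 600 to 5000 genes and under 5% mitochondrial UMIs, and 575 of these were PV nuclei.

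The study asked how chronic stress alters transcription in the cortex, and sampled 4 control and 4 CUS mice, all male animals labelled as C57BL/6 (C57Bl/6J in the Methods) and postnatal day 80. CUS began at 9 to 10 weeks of age and lasted 12 days, with several stressors each day, and neocortex for sNucDrop-seq was frozen 24 h after the last stressor. Controls were handled daily in a separate room, and all mice were housed in groups of 4 to 5. The labels name no transgene in either group. A second data set measured nuclear RNA in bulk from the medial prefrontal cortex (mPFC) of 4 other control and 5 other CUS mice, labelled as postnatal day 90. Per the Methods this tissue was collected 24 h after behavioral testing had ended, so the bulk and single-nucleus data differ in region, age and time of sampling.

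PV interneurons are the fast-spiking inhibitory cells of the cortex. They contact the soma and axon initial segment of pyramidal neurons, release GABA with little delay through synaptotagmin-2, and sustain high firing rates with Kv3 potassium channels. They arise from the medial ganglionic eminence, are rich in mitochondria, carry the neuregulin receptor ErbB4, and are often wrapped in perineuronal nets.

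The PV nuclei held 1719334 UMIs in total. A PV nucleus had a median of 2552 UMIs (805 to 12057) and 1573 genes, against a median of 1959 UMIs in the 5036 other GABAergic nuclei and 2094 in all nuclei. Control mice 1 to 4 gave 64, 89, 97 and 45 PV nuclei, and CUS mice 1 to 4 gave 50, 50, 58 and 122. CUS mouse 4 thus held the largest number, and control mouse 4 the smallest. Over all nuclei, the mitochondrial ribosomal RNA mt-Rnr1 split the mice into 4 at 512 to 762 CPM (control 2 and 3, CUS 3 and 4) and 4 at 105 to 156 CPM (control 1 and 4, CUS 1 and 2). CPM gives a gene's UMIs over all UMIs of the nuclei concerned, scaled to a common total. The methods name 2 batches of 2 control and 2 CUS mice without assigning mice to them, and whether the split marks these batches was not tested. Pairs of mice shared 0 to 4 barcodes among the nuclei kept, and PV nuclei shared 0.

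The genes of the rule marked the nuclei as the rule required, and their levels are a description. Pvalb, a calcium buffer of fast-spiking cells, stood at 366 CPM in PV nuclei and 28.6 CPM in other GABAergic nuclei. It was detected in 56.7% of PV nuclei, and in 28.3% after each nucleus was thinned to 1000 UMIs. In types that should lack it, the thinned share was 0.423% (layer 2/3 excitatory nuclei, median 4607 UMIs) and 1.04% (striatal projection nuclei, median 2332 UMIs). Btbd11 stood at 430 against 64.3 CPM, the transcriptional cofactor Eya4 at 261 against 28.8 CPM, the calcium sensor Syt2 at 247 against 27.5 CPM, and Erbb4 at 5519 against 1734 CPM. The adhesion molecule Cntnap4 stood at 697 against 156 CPM. Gad1, which makes GABA, was higher in PV nuclei (711 against 373 CPM), whereas its paralog Gad2 was lower (562 against 703 CPM).

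Of the members, 226 held 2 of the 5 optional markers, 191 held 3, 114 held 4 and 44 held all 5, and their median depth was 2082.5, 2565.0, 3431.5 and 4976.5 UMIs in that order. Just outside the rule lay 123 nuclei with 1 marker, where the Kv3 gene Kcnc1 stood at 794 CPM, against 870 CPM in members with 2 markers. A further 136 nuclei were left out for 1 UMI of Sst, Vip, Adarb2 or Rgs9, and their Kcnc1 level was 895 CPM. Members with 1 UMI of the excitatory gene Slc17a7 (30 nuclei) had 745 CPM of Kcnc1, and the 7 nuclei left out for 2 UMIs had 438 CPM.

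**Figure D1:**
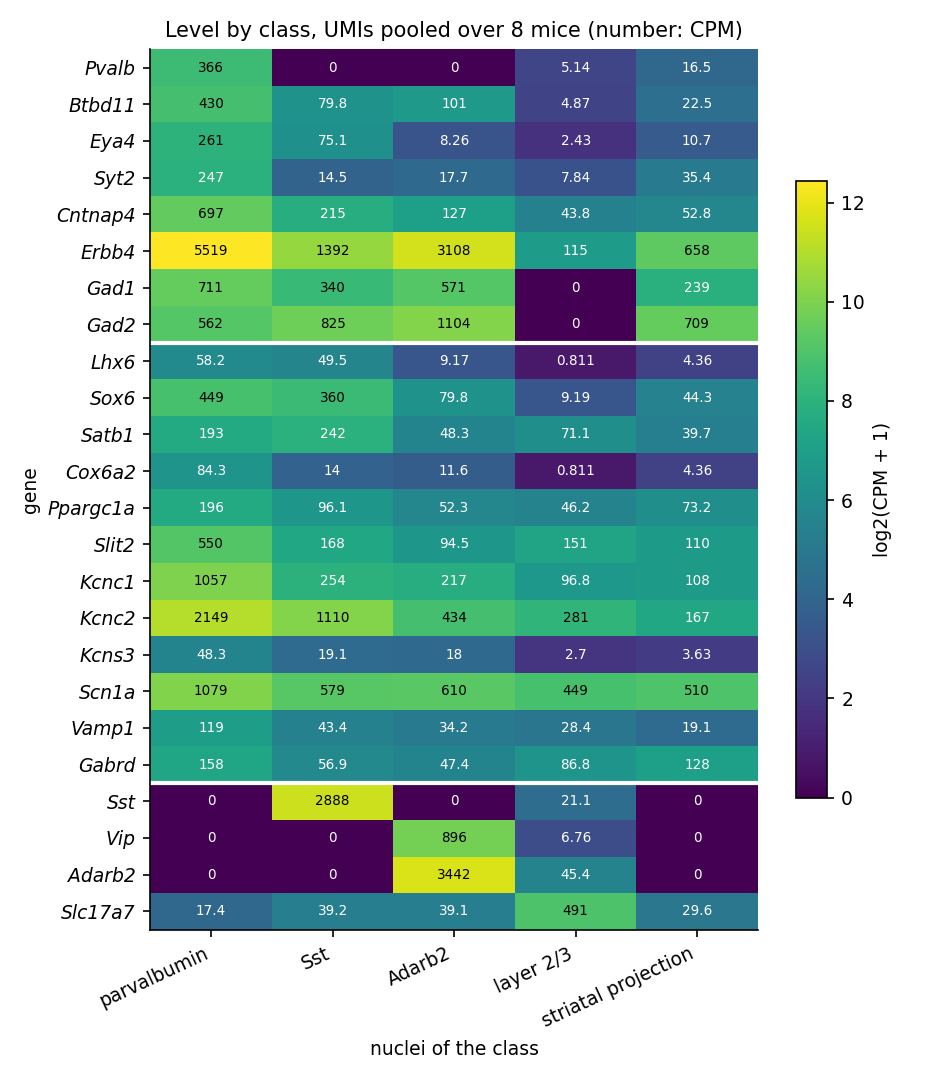
Level of 24 genes (rows) in 5 classes of nuclei (columns), as log2(CPM + 1) of UMIs pooled over 8 mice, with the CPM printed in each cell. The upper block holds genes that the rule required or counted, the middle block genes it did not use, and the lower block genes it kept out; Kcnc1 stands at 1057 CPM in PV nuclei and at most 254 CPM in the other classes, and the zeros of Pvalb, Sst, Vip and Adarb2 among GABAergic classes come from the class rules.

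Genes outside the rule were then compared between PV nuclei and the other GABAergic nuclei of the same mice, and rule genes that stand on a list are named there. Since the nuclei were chosen by their RNA, these values are given without a test. The 5036 other GABAergic nuclei held 1 or more UMI of Gad1 or Gad2, at most 1 of Slc17a7 and 0 of Rgs9. Among them 825 formed the Sst class and 1395 the Adarb2 class, and the larger part lay in neither. Slc17a7 was detected in 15% of the 5036, so the ratios do not compare PV nuclei with classified interneurons alone. Of 13701 genes with at least 50 UMIs, 46.6% were higher in PV nuclei in pooled CPM, 5.8% were higher in all 8 mice and 10.8% were lower in all 8 mice. Among genes detected in at least 25% of PV nuclei, those outside the rule with the highest ratios were 6330411D24Rik (149 against 14.5 CPM, 10.3-fold), Mypn (163 against 20.5 CPM), the hyaluronan-binding protein gene Cemip (362 against 51.6 CPM) and Phlda1 (150 against 31.6 CPM). Each was higher in 8 of 8 mice.

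Apart from the rule's own markers, the list with the highest median held transcription factors of the medial ganglionic eminence and other genes of the PV lineage. Its median log2 ratio was 1.17 with 19 of 22 members higher, against -0.04 for all genes. Lhx6 stood at 58.2 against 19.9 CPM, Sox6 at 449 against 142 CPM and Satb1 at 193 against 112 CPM. These genes also mark somatostatin (Sst) nuclei, where Sox6 reached 360 CPM and Satb1 242 CPM. The myosin-binding protein gene Mybpc1 differed more between these types, with 93.1 CPM in PV and 5.13 CPM in Sst nuclei. The guidance ligand Slit2 stood at 550 CPM in PV and 168 CPM in Sst nuclei, and the potassium channel subunit Kcnmb2 at 429 and 233 CPM. The 3 members that were lower were Sulf1 (4.65 against 34.2 CPM in other GABAergic nuclei), Etv1 (45.9 against 50.2 CPM) and Dlx6os1 (127 against 136 CPM).

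Ion channels of fast spiking were higher for 16 of 18 genes, 12 of them in all 8 mice, with a median log2 ratio of 1.05. The Kv3 genes Kcnc1 and Kcnc2 stood at 1057 against 236 CPM (4.48-fold) and 2149 against 597 CPM (3.60-fold). Sst nuclei held 254 CPM of Kcnc1 and 1110 CPM of Kcnc2, so Kcnc2 is shared with them more than Kcnc1. Kcnc1 ranged from 931 to 1207 CPM over the 8 mice. The Kv1 subunit Kcnab3 was 3.81-fold higher, the silent Kv2 partner Kcns3 3.68-fold and the sodium channel Scn1a 1.87-fold. Kcnip4, a Kv4 partner, was lower (1812 against 3434 CPM), as was Kcnc4 (5.82 against 19.1 CPM). Kcnc1 and Kcnc2 thus differed in direction from Kcnc4, which encodes another Kv3 channel.

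Genes of energy metabolism were higher for 33 of 35, 17 of them in 8 of 8 mice, with a smaller median log2 ratio of 0.44. The respiratory subunit Cox6a2 stood at 84.3 against 14.5 CPM (5.80-fold), the orphan receptor gene Esrrg at 369 against 115 CPM and the coactivator Ppargc1a at 196 against 79.4 CPM. The lactate dehydrogenase subunits went opposite ways, with Ldhb 1.95-fold higher and Ldha at 0.52 of the level in other GABAergic nuclei. Cox6a2, Esrrg and Ppargc1a also stand on the lineage list.

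At the synapse, the PV nuclei differed gene by gene. Of 27 genes of GABA synthesis and release, 12 were higher. Gad1 and Syt2, which the rule used, are counted among the 12, and Gad2, which it also used, among the lower genes. Higher genes outside the rule included the vesicular GABA transporter Slc32a1 (301 against 148 CPM), complexin Cplx1 (375 against 151 CPM) and the SNARE gene Vamp1 (119 against 42.3 CPM). The priming factor Unc13c was lower, at 15.1 against 98.7 CPM. Of 19 GABA receptor and inhibitory synapse genes, 9 were higher, with Gabrd at 158 against 62.5 CPM, whereas Gabra2 stood at 82 against 338 CPM. Glutamate receptor genes were mostly lower, with 8 of 35 higher and 19 lower in all 8 mice. The other GABAergic nuclei held more marker RNA of excitatory neurons (1734 against 859 CPM in PV nuclei) and astrocytes (947 against 326 CPM). What part this RNA had in the lower levels was not tested. The AMPA receptor genes Gria4 (2032 against 1225 CPM) and its partner Cacng2 (208 against 93.4 CPM) were higher in every mouse. Grin3a (35.5 against 185 CPM) and Grm8 (37.2 against 209 CPM) were lower in every mouse. Grin3a stood at 572 CPM in Sst and 138 CPM in Adarb2 nuclei, and Grm8 at 138 and 234 CPM.

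Perineuronal net genes were sparse, and 14 of 18 had 50 UMIs. Of these 9 were higher in pooled CPM, 2 higher in all 8 mice and 4 lower in all 8 mice, with a median log2 ratio of 0.24. Aggrecan (Acan) stood at 19.8 against 2.15 CPM, from 34 UMIs, and brevican (Bcan) at 111 against 52.2 CPM, higher in 8 of 8 mice. Neurocan (Ncan), at 27.3 against 54.9 CPM, and versican (Vcan), at 8.14 against 45.5 CPM, were lower in all 8 mice. Of 7 neuregulin and ErbB genes with 50 UMIs, 3 were higher, Erbb4 by the rule among them. The ligand gene Nrg1 was lower in every mouse (479 against 1273 CPM), and Nrg3 stood at 2710 against 2797 CPM. Activity-regulated genes were lower for most members, with 4 of 31 higher and a median log2 ratio of -1.12. Egr1 stood at 19.8 against 96 CPM and Bdnf at 15.7 against 45.3 CPM. In Sst and Adarb2 nuclei, Egr1 stood at 98.5 and 74.6 CPM, Bdnf at 31.7 and 29.0 CPM and Nrg1 at 850 and 1044 CPM. What part the excitatory marker RNA of the other GABAergic nuclei had in these lower levels was not tested. Of 24 glucocorticoid and stress genes 6 were higher, led by the CRH-binding protein gene Crhbp (113 against 52.9 CPM), and the receptor gene Nr3c1 stood at 114 against 159 CPM. Of 16 genes of chromatin architecture, Wapl alone was higher in pooled CPM, and Yy1 stood at 59.3 against 65.6 CPM.

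**Figure D2:**
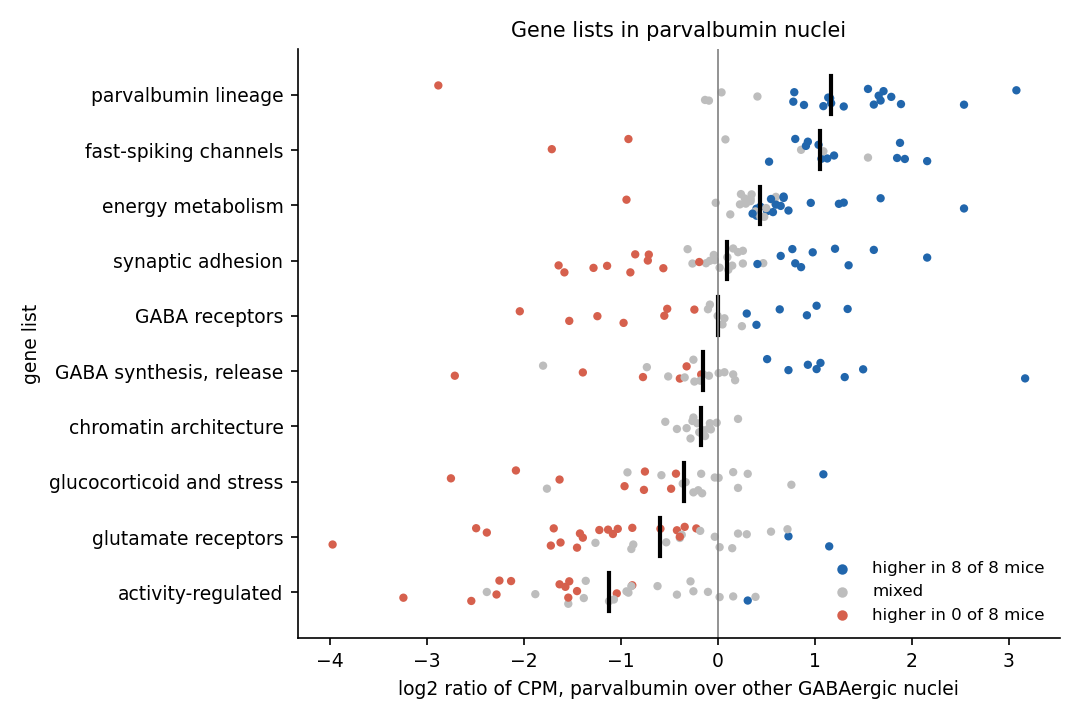
Log2 ratio of CPM in PV nuclei over other GABAergic nuclei for each gene (points) of 10 lists, coloured by the number of mice in which PV nuclei were higher, with the list median as a black bar. Gad1, Gad2, Syt2 and Cntnap4, used by the rule, are among the points. Fast-spiking channels have a median of 1.05, energy genes 0.44, glutamate receptor genes -0.59 and activity-regulated genes -1.12.

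Within the PV nuclei, the tachykinin gene Tac1 was detected in 29.2%, Cck in 28.5%, Npy in 17.0% and Calb1 in 16.2%. After thinning to 1000 UMIs, Tac1 was in 16.1% of PV, 5.23% of other GABAergic, 0.846% of layer 2/3 and 26.7% of striatal projection nuclei. The thinned share of Npy was 9.12% in PV, 17.3% in other GABAergic and 2.4% in layer 2/3 nuclei. Calb1 and Cck were less frequent than in some other types, and no subset of PV nuclei is read from them, with Calb1 in 9.3% of PV, 11.0% of striatal projection and 20.5% of layer 2/3 nuclei, and Cck in 13.6% of PV, 18.7% of other GABAergic and 29.9% of layer 2/3 nuclei. Tac1 nuclei (168) had a median depth of 2773.0 UMIs and the other 407 nuclei 2472.0 UMIs. Kcnc1 stood at 1060.3 and 1056.2 CPM in them, and Sox6 at 450 and 449 CPM. Kcnc2 was higher in Tac1 nuclei (2609.7 against 1953.4 CPM). Syt2 (184 against 274 CPM) and Eya4 (190 against 291 CPM) were lower, but the rule counted both to choose the nuclei. These values are pooled over nuclei of all mice and are a description. The genes of chandelier cells, which contact the axon initial segment, were near 0, with Vipr2 and Nkx2-1 in 1 nucleus each and Unc5b in 6. Thinned Tac1 shares were 17.5, 12.6, 22.7 and 13.3% in control mice 1 to 4, and 18.0, 12.0, 20.8 and 12.3% in CUS mice 1 to 4, so that the groups overlapped.

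Genes used as markers of other cell types were also detected in the PV nuclei. The markers of striatal projection neurons (11 genes, with Rgs9, which the rule kept out, and Adora2a at 0) summed to 685 CPM against 754 CPM in other GABAergic nuclei, and ranged from 604 to 749 CPM in control and 660 to 753 CPM in CUS mice. The markers of excitatory neurons (12 genes) summed to 859 CPM against 1734.0 CPM in other GABAergic nuclei, those of astrocytes (8 genes) to 326 against 947 CPM, and those of oligodendrocytes (8 genes) to 596 against 996 CPM. The excitatory list holds Slc17a7, which the rule limited. Of its 12 genes 2 were higher in PV nuclei, Rasgrf2 (180 against 149 CPM) and Cux2 (75.6 against 60 CPM). Of 9 striatal genes with 50 UMIs 3 were higher, Tac1 (220 against 68.4 CPM) and Rarb (72.1 against 53.3 CPM) among them. Pde10a, another striatal marker, stood at 326 against 388 CPM. What part of these sums came from other cells was not tested. The Sst list (7 genes) summed to 298 CPM, with Sst at 0 by the rule and Chodl at 0 without it, and with Npy at 117 and Calb1 at 126 CPM. Of 5 endothelial markers 4 were at 0. A doublet score above 0.2 was given to 11.8% of PV nuclei and 15.3% of all nuclei.

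The share of PV nuclei among all nuclei was next compared between control and CUS mice. It was 1.86, 1.84, 1.96 and 1.99% in control mice 1 to 4 (1.91% ± 0.0708, SD, n = 4) and 1.23, 1.45, 1.61 and 2.50% in CUS mice 1 to 4 (1.70% ± 0.558, n = 4). CUS mice 1, 2 and 3 lay below every control, and CUS mouse 4 lay above every control. The exact binomial 95% interval of CUS mouse 4 was 2.08 to 2.98%, and that of CUS mouse 1 was 0.917 to 1.62%, for counting error only. The difference was not significant (exact permutation test, two-sided, p = 0.514, adjusted p = 0.686 over 4 measures). After each nucleus was thinned to 1000 UMIs and the rule applied again, the shares were 0.822, 0.929, 0.928 and 0.966% in control and 0.613, 0.661, 1.0 and 1.04% in CUS mice. CUS mouse 3 then lay above every control as well, and the difference was -0.0827 percentage points (exact permutation test, p = 0.457). Without CUS mouse 4 and without thinning it was -0.480 percentage points (exact permutation test, p = 0.0571, the smallest that 4 against 3 mice can give). Among the mice with low mt-Rnr1, the controls had 1.86 and 1.99% and the CUS mice 1.23 and 1.45%. Among those with high mt-Rnr1, the controls had 1.84 and 1.96% and the CUS mice 1.61 and 2.50%. A lower share could come from fewer PV cells or from less RNA of the rule's genes per nucleus, and these cannot be told apart.

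Of GABAergic nuclei, PV nuclei made up 10.3, 9.94, 10.3 and 11.5% in control mice and 6.30, 9.42, 9.12 and 15.2% in CUS mice (10.5% ± 0.669 and 10.0% ± 3.75, p = 0.771, exact permutation test). CUS mouse 4 was again the highest of the 8 and CUS mouse 1 the lowest. The median depth of PV nuclei was 2660.4 ± 462.0 UMIs in control and 2414.1 ± 259.0 UMIs in CUS mice (exact permutation test, p = 0.486, n = 4 each).

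**Figure D3:**
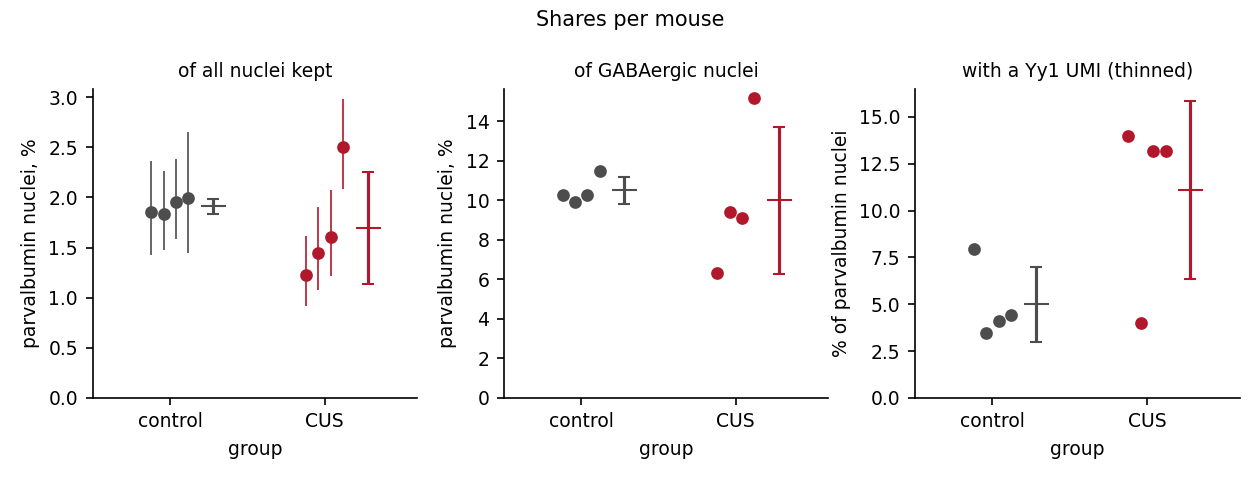
PV nuclei as a percentage of all nuclei (left, thin lines: exact 95% binomial interval) and of GABAergic nuclei (middle), and the percentage of PV nuclei with a Yy1 UMI after thinning to 1000 UMIs (right). Points are mice, 4 per group, and bars the mean and SD; the CUS mice spread more widely than the controls in the left panel (1.23 to 2.50% against 1.84 to 1.99%).

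To find genes that changed with CUS, UMIs of the PV nuclei were summed per mouse and tested with edgeR's quasi-likelihood test. Of 5846 genes, 4 passed an FDR of 0.2, which is 0.0684% of those tested. Gpc5 was higher in CUS mice (1 gene, 0.0171%), and Tll1, Egfem1 and Gpc6 were lower (3 genes, 0.0513%). An unadjusted p under 0.05 was reached by 340 genes (5.82%), and 176 (3.01%) had no overlap between groups, 90 of them higher (1.54%) and 86 lower (1.47%). The median log2 fold change was 0.01. Levels here are normalized CPM, which are scaled by TMM factors over the tested genes and so are slightly above the CPM given before.

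Tll1, on chromosome 8 (64014931 to 64206271, mm10), encodes a secreted metalloprotease of the BMP1 family. It measured 79.2, 175, 102 and 130 normalized CPM in control mice 1 to 4 and 54.3, 19.3, 45.9 and 41.1 in CUS mice 1 to 4. All CUS mice lay below all controls. The log2 fold change was -1.60 (SE 0.33, FDR 0.0498, edgeR), from 134 UMIs in 73 nuclei, of which the highest nucleus held 16. Of these UMIs, 3 lay in nuclei with 5 or more astrocyte marker UMIs. Tll1 was 4.34-fold higher in PV than in other GABAergic nuclei.

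Gpc6, on chromosome 14 (116925315 to 117976544), encodes a glypican, a heparan sulfate proteoglycan held at the cell surface. It measured 122, 132, 143 and 260 normalized CPM in control and 63.4, 86.6, 45.9 and 65.7 in CUS mice. The groups did not overlap, and control mouse 4 stood apart from the other controls. The log2 fold change was -1.26 (SE 0.29, FDR 0.0909, edgeR), and without control mouse 4 it was -1.05 (FDR 0.539).

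Egfem1, on chromosome 3 (29082023 to 29691209), encodes a protein with EGF-like domains. It measured 21.6, 64.3, 122 and 95.3 normalized CPM in control and 27.2, 19.3, 23 and 19.2 in CUS mice. Control mouse 1 lay within the range of the CUS mice, and the other controls lay above it. The log2 fold change was -1.88 (SE 0.43, FDR 0.0909, edgeR). Its 83 UMIs came from 42 nuclei, and 1 nucleus of control mouse 3 held 16. They numbered 3, 18, 36 and 11 in control and 3, 2, 3 and 7 in CUS mice. Egfem1 thus met the UMI filter only through the controls, where it was high, and its difference rests on few UMIs. Egfem1 was also among the genes lowest in PV nuclei against other GABAergic nuclei (48.3 against 340 CPM), and Adarb2 nuclei held 534 CPM.

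Gpc5, a second glypican gene, lies before Gpc6 on the same strand of chromosome 14 (115092215 to 116525179). It measured 28.8, 17.9, 37.4 and 60.6 normalized CPM in control and 54.3, 135, 30.6 and 189 in CUS mice. CUS mice 2 and 4 exceeded every control, and CUS mice 1 and 3 lay within the range of the controls. The UMIs numbered 4, 5, 11 and 7 in control and 6, 14, 4 and 69 in CUS mice. Gpc5 thus met the UMI filter only through the CUS mice, chiefly CUS mouse 4. The log2 fold change was 1.84 (SE 0.39, FDR 0.0498, edgeR), and without CUS mouse 4 it was 1.07 (FDR 0.804). Of its 120 UMIs in 43 nuclei, 78 lay in the 16 nuclei with 5 or more astrocyte marker UMIs, and 1 such nucleus of CUS mouse 4 held 29. The 4 tested astrocyte markers were positive as well, with a median log2 fold change of 0.79. The summed astrocyte markers ranged from 200 to 415 CPM in control and 207 to 526 CPM in CUS mice, and their part in the Gpc5 difference was not tested beyond leaving such nuclei out. When the 57 nuclei with 5 or more astrocyte or oligodendrocyte marker UMIs were left out, a step chosen after seeing the data, Gpc5 had too few UMIs to be tested, Tll1 (-1.70) and Gpc6 (-1.59) passed at an FDR of 0.0434, and Egfem1 did not (FDR 0.802).

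The number of calls rested on single mice and on the test. Without CUS mouse 4, none of the 4 passed, and the count was 1. Without control mouse 2, Tll1 (-1.32, FDR 0.422, edgeR) and Gpc5 (1.54, FDR 0.411) did not pass, and Gpc6, Egfem1 and Gm28928 did. Without control mouse 3, Tll1 alone passed, and without control mouse 4, Gpc5 and Tll1 passed. Without CUS mouse 3, Gpc6 and Egfem1 did not pass. Without CUS mouse 2, 11 genes passed, the 4 among them, and Pvalb, which the rule used to choose the nuclei, was counted as well. A likelihood ratio test in edgeR gave 10 genes, the 4 included, and Pvalb, which the rule used, was also counted. DESeq2 gave 0, with 130 genes at an unadjusted p under 0.05. With the mt-Rnr1 split as a term, a step also chosen after seeing the data, 6 genes passed: the 4, Gm28928 and Mical2.

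**Figure D4:**
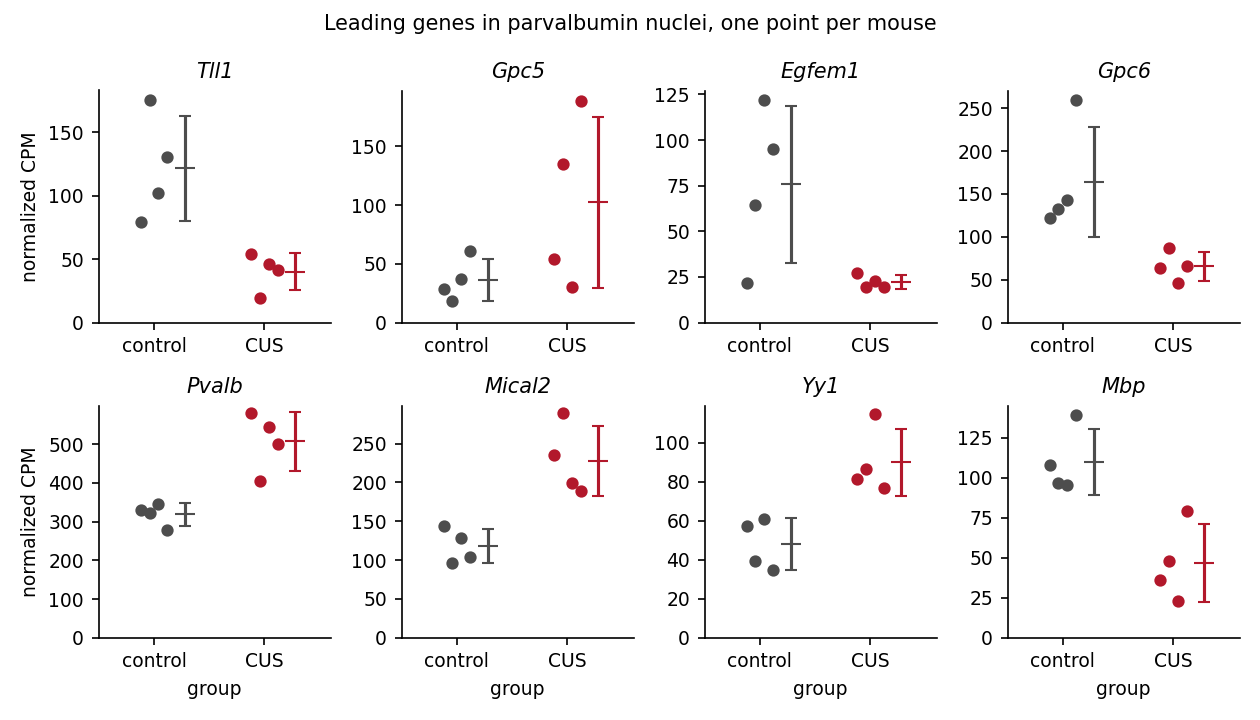
Normalized CPM of 8 genes in the PV nuclei of each mouse (points, 4 per group), with mean and SD beside them; the y axes start at 0 and differ between panels. Tll1 and Gpc6 passed the FDR of 0.2 with no overlap of the groups, Gpc5 and Egfem1 passed with overlap, and the 4 genes in the lower row did not pass.

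Pvalb itself measured 331, 322, 346 and 277 normalized CPM in control and 580, 404, 544 and 501 in CUS mice. Every CUS mouse lay above every control (log2 fold change 0.65, SE 0.18), but Pvalb helped to choose the nuclei, so these values are a description. When nuclei were chosen by the other markers alone (486 nuclei), Pvalb measured 274, 302, 329 and 230 in control and 443, 270, 465 and 387 in CUS mice. CUS mouse 2 then lay within the control range. The log2 fold change was 0.42 (SE 0.20, FDR 0.929, edgeR), which did not pass. Btbd11, Eya4, Syt2, Cntnap4 and Erbb4 overlapped between groups, with log2 fold changes of -0.18 to 0.31.

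Some genes did not pass in the main test but had no overlap between groups, which held for 176 of all 5846 tested genes (3.01%). Full separation of 4 against 4 mice gives p = 0.0286 in an exact permutation test, near that share. The genes below are therefore examples and not a result about them. Mical2, an actin-oxidizing enzyme, measured 144, 96.5, 129 and 104 normalized CPM in control and 235, 289, 199 and 189 in CUS mice. Its log2 fold change was 0.90 (SE 0.23, FDR 0.265, edgeR). The ribosomal protein gene Rplp1 measured 36, 71.5, 74.7 and 60.6 in control and 163, 96.3, 130 and 142 in CUS mice (1.07, FDR 0.332). The Kv1 channel gene Kcna6 measured 28.8, 46.5, 44.2 and 26 in control and 118, 67.4, 68.9 and 98.6 in CUS mice (1.19, FDR 0.462). On the lower side, the Kv2 channel gene Kcnb2 measured 187, 182, 238 and 243 in control and 118, 125, 68.9 and 151 in CUS mice (-0.78, FDR 0.539). The GABA-A receptor gene Gabrb2 measured 648, 783, 598 and 563 in control and 408, 530, 490 and 476 in CUS mice (-0.46, FDR 0.846).

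Yy1, a zinc-finger transcription factor that the study followed in each neuron type, measured 57.6, 39.3, 61.1 and 34.6 normalized CPM in control and 81.5, 86.6, 115 and 76.7 in CUS mice. The groups did not overlap, as for 3.01% of all tested genes, and the difference did not pass (log2 fold change 0.82, SE 0.32, FDR 0.846, edgeR). After thinning to 1000 UMIs, 7.94, 3.45, 4.12 and 4.44% of PV nuclei in control mice held a Yy1 UMI, against 14.0, 4.0, 13.2 and 13.2% in CUS mice. These shares rest on 2 to 15 nuclei per mouse, and CUS mouse 2 lay among the controls. The means of 4.99% ± 2.01 and 11.1% ± 4.74 did not differ beyond this spread (exact permutation test, p = 0.114, adjusted p = 0.457, n = 4 each). Without thinning, the difference was 7.78 percentage points (exact permutation test, p = 0.0286, the smallest that 4 against 4 mice can give).

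No gene of any list passed at an FDR of 0.2, and over all tested genes 4 of 5846 (0.0684%) did. Among fast-spiking channels 9 of 15 tested genes were positive (median log2 fold change 0.10), with Kcns3 at 43.2, 42.9, 37.4 and 52 normalized CPM in control and 54.3, 67.4, 68.9 and 71.2 in CUS mice (0.65, FDR 0.85, edgeR). Kcnc1 (0.12) and Kcnc2 (-0.18) stayed close to 0. Among energy genes 27 of 33 were positive (median 0.15), with Cox6c at 0.46 (FDR 0.846). Among ribosomal protein genes 17 of 24 were positive (median 0.31). On the other side, 24 of 33 synaptic adhesion genes (median -0.12), 18 of 27 glutamate receptor genes (median -0.15) and 12 of 17 GABA receptor genes (median -0.14) were negative. Over all tested genes, 2982 of 5846 were positive with a median of 0.01. The PV lineage list had 10 positive and 11 negative genes. The 4 tested activity-regulated genes, Vgf, Homer1, Scg2 and Mapk4, lay between -0.98 and 0.37, and Fos, Fosb and Egr1 held too few UMIs to be tested. Nr3c1, the glucocorticoid receptor gene, was at 127 ± 15.1 normalized CPM in control and 127 ± 28.5 in CUS mice.

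Of the oligodendrocyte markers, 4 of 8 were tested in PV nuclei, and all 4 had negative log2 fold changes (median -0.63) without passing (lowest FDR 0.846, edgeR). The summed markers ranged from 606 to 792 CPM in control and 179 to 718 CPM in CUS mice, with overlap. Mbp, which encodes myelin basic protein, measured 108, 96.5, 95.1 and 139 normalized CPM in control and 36.2, 48.1, 23 and 79.4 in CUS mice (-0.92, FDR 0.846, edgeR). Of its 127 UMIs, 85 lay in nuclei with 5 or more glial marker UMIs. The part of this RNA in other differences was not tested beyond leaving those nuclei out.

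Whether the CUS differences of PV nuclei differed from those of other neurons of the same mice was tested by the interaction of class and condition. Against Sst nuclei (825), 0 of 4998 genes passed (0%), with 176 (3.52%) at an unadjusted p under 0.05, and the likelihood ratio test called 2. Against Adarb2 nuclei (1395), 3 of 4624 passed (0.0649%, with 4.8% at an unadjusted p under 0.05), and against layer 2/3 excitatory nuclei (714), 6 of 5586 passed (0.107%, with 4.35% at an unadjusted p under 0.05). The 3 were Gpc5, Egfem1 and Gpc6, and all 3 also stood among the 6. In PV nuclei Egfem1 met the UMI filter only through the control mice and Gpc5 only through the CUS mice. CUS mouse 2 gave only 26 layer 2/3 nuclei, and without it 0 genes passed there. Without any other mouse, 1 to 5 passed. Against Adarb2 nuclei, 6 passed without control mouse 1 or 2, and 1 without control mouse 3 or CUS mouse 4. The count was also 0 in both comparisons when nuclei with a doublet score above 0.2 were left out.

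The log2 fold change of Gpc6 was -1.26 in PV, -0.20 in Sst, 0.01 in Adarb2 and -0.12 in layer 2/3 nuclei, and that of Egfem1 was -1.88, -0.28, -0.19 and -0.17. Gpc5 stood at 1.84, -0.35, -0.11 and -0.02. For Gpc6 the difference between PV and Adarb2 nuclei was -1.28 (SE 0.30, FDR 0.0636, edgeR), for Egfem1 -1.85 (SE 0.41, FDR 0.0557) and for Gpc5 1.92 (SE 0.39, FDR 0.0164). Against Sst nuclei the differences were -1.11, -1.69 and 2.14 and did not pass (FDR 1, 0.353 and 0.353). Called against layer 2/3 nuclei were also Trpm3 (1.32 in PV and -0.52 in layer 2/3 nuclei) and Srgap2 (-0.53 and 0.40). By contrast, Mical2 stood at 0.90 in PV, 0.77 in Sst and 0.71 in layer 2/3 nuclei. Within these classes it passed in layer 2/3 nuclei (FDR 0.197, edgeR) and not in PV or Sst nuclei (FDR 0.603 in Sst). In Adarb2 nuclei Mical2 stood at 0.09, and the difference from PV did not pass (0.81, SE 0.28, FDR 0.993). Tll1 held too few UMIs in the other classes to be tested.

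**Figure D5:**
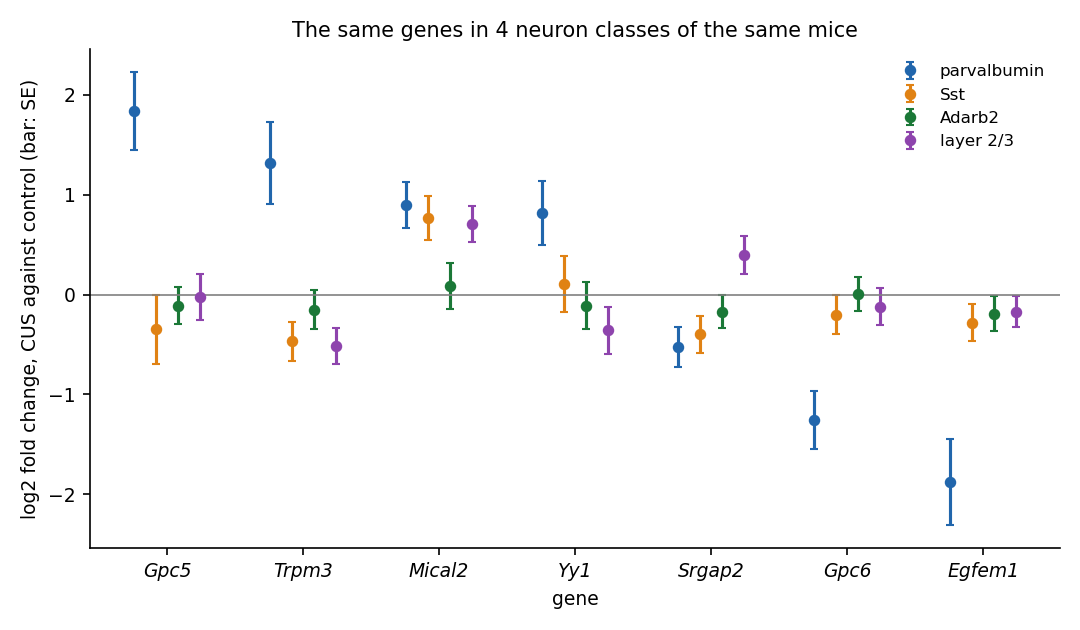
Log2 fold change of CUS against control (y axis, bars: SE) for 7 genes in PV, Sst, Adarb2 and layer 2/3 nuclei of the same 8 mice. Gpc6 and Egfem1 lie at -1.26 and -1.88 in PV nuclei and between -0.28 and 0.01 in the other classes, whereas Mical2 lies at 0.71 to 0.90 in PV, Sst and layer 2/3 nuclei.

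Bulk nuclei of the mPFC came from mice that the rule did not use, so the rule's genes could be tested there, although all cell types are mixed. Over all genes 606 of 18394 passed an FDR of 0.05 (3.29%), and 21.5% had an unadjusted p under 0.05 (edgeR). Of 29 tested genes of the rule's positive markers and the PV lineage list 1 passed, Slit2, at 301, 254, 212 and 193 normalized CPM in control and 184, 167, 188, 156 and 161 in CUS mice. All CUS mice were below all controls (log2 fold change -0.49, SE 0.11, FDR 0.0368, edgeR). The count was 0 without control mouse 2 or CUS mouse 1, 3, 4 or 5, 2 without CUS mouse 2 and 4 without control mouse 3. In bulk tissue, fewer cells of a type and less RNA per cell cannot be told apart. Slit2 is not confined to PV nuclei, with 550 CPM there, 168 in Sst, 94.5 in Adarb2 and 151 in layer 2/3 nuclei. Its log2 fold change was -0.23 in PV nuclei (FDR 0.918, edgeR). It was -0.44 in Sst, -0.60 in Adarb2 and -0.28 in layer 2/3 nuclei, and passed in none. Which cells gave the bulk difference was not tested.

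Pvalb in bulk measured 1.47, 1.31, 2.47 and 1.84 normalized CPM in control and 2.77, 1.7, 2.42, 2.62 and 2.44 in CUS mice. The groups overlapped, and the difference did not pass (0.44, SE 0.20, FDR 0.229, edgeR). Btbd11 stood at 0.34 (FDR 0.0618). Of the 4 genes called in PV nuclei, Egfem1 passed in bulk in the same direction (-0.41, SE 0.10, FDR 0.0399), whereas Tll1 (-0.41, FDR 0.322), Gpc5 (-0.19, FDR 0.121) and Gpc6 (0.34, FDR 0.158) did not. Egfem1 held 48.3 CPM in PV nuclei, against 308 in Sst, 534 in Adarb2 and 358 in layer 2/3 nuclei. Bulk tissue mixes all cell types, so the bulk value cannot be assigned to PV nuclei. Mical2 passed in bulk (0.53, SE 0.13, FDR 0.0476), from 371, 436, 610 and 410 normalized CPM in control to 775, 545, 671, 667 and 646 in CUS mice, with overlap at control mouse 3 and CUS mouse 2.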

How the data were processed

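sNucDrop-seq was analysed in 8 mice and bulk nuclear RNA-seq in 9. Per the Methods, nuclear reads were mapped to mm10 and UMIs counted on exons and introns of GENCODE genes with strand. The deposited values are raw UMI counts for 5000 barcodes per mouse, made by the authors before any filter, and raw bulk read counts per gene. The annotation release of the bulk counts is not given in the sources used here. Bulk depth was 26188825 to 30525015 reads per mouse, and the nuclei kept held 6074138 to 15459579 UMIs per mouse.

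Groups were taken from the sample labels, and the mouse was the replicate. The members, gene lists and tests were chosen with earlier results of these data known. Nuclei were counted into classes by their UMIs without clustering. The Sst, Adarb2 and layer 2/3 classes were set by like rules, which required 0 Pvalb UMIs in Sst and Adarb2 nuclei. Doublets were kept, and leaving out Scrublet scores above 0.2 (scanpy 1.11.5) was an alternative. UMIs summed per mouse were tested with edgeR 4.0.16 in R 4.3.3 (TMM, quasi-likelihood test, Benjamini-Hochberg adjustment) on genes whose UMIs exceeded 10% of the nuclei, at an FDR of 0.2. No batch term was used, because the batch of each mouse is not given. The Methods describe the batch effect in gene expression as profound and include batch in their model. Interactions had the mouse as a block. Bulk counts were tested at an FDR of 0.05 after filterByExpr. Shares were compared by exact permutation tests over mice (scipy 1.17.1). The tests were tested on simulated data. DESeq2 1.42.0 and the other alternatives are given in the closing section.

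The rule for named genes took the 13 genes of the selection, called genes, the 3 tested genes per list with the largest change and the 3 with the highest CPM, genes the study names, the 15 highest and 15 lowest ratios to other GABAergic nuclei, and at most 5 genes per direction in each interaction. Acan, Bdnf, Cacng2, Chodl, Cox6a2, Cplx1, Crhbp, Dlx6os1, Etv1, Gabrd, Kcnab3, Kcnc4, Kcnmb2, Ldha, Ldhb, Mybpc1, Ncan, Nkx2-1, Ppargc1a, Satb1, Slc32a1, Sox6, Sulf1, Unc13c, Unc5b, Vamp1, Vcan, Vipr2 and Wapl fall outside it and were chosen after their values were seen. Some genes that enter the counts are not reported here. Same-numbered control and CUS mice did not deviate together (correlations of -0.06 to 0.09), so the numbers do not pair them. Control and CUS mice of equal mt-Rnr1 level had correlations of -0.02 to 0.12, and those of unequal level -0.11 to -0.01. Whether this reflects the batches was not tested, and the main test had no term for the split. Replicates of a group differed by more than sampling noise.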

Additional observations from a re-analysis of the deposited data

Results flagged for a closer look

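Among 68 groups of mice tested for a value far from the others, 2 held one, and chance alone marks about 1 in 20. The thinned share of PV nuclei with a Yy1 UMI was 4.0% in CUS mouse 2, against 13.2 to 14.0% in the other CUS mice. Gpc6 measured 260 normalized CPM in control mouse 4, against 122 to 143 in the other controls.

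The CUS difference in PV nuclei minus that in Adarb2 nuclei passed an FDR of 0.2 (edgeR interaction) for Gpc5 (1.92), Egfem1 (-1.85) and Gpc6 (-1.28). Against layer 2/3 nuclei it passed for Trpm3 (1.93, FDR 0.0979), Gpc6 (-1.22, FDR 0.105), Egfem1 (-1.76, FDR 0.105), Gpc5 (1.87, FDR 0.108) and Srgap2 (-0.97, FDR 0.108). Of the 77 Trpm3 UMIs in PV nuclei, 43 lay in nuclei with 5 or more glial marker UMIs.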

How the results depend on the processing

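The share of PV nuclei among all nuclei differed by -0.212 percentage points between CUS and control mice, and by 0.0287 when a Pvalb UMI was required. Its share of GABAergic nuclei, at -0.493, turned to 0.308 without doublet scores above 0.2, to 0.525 with Pvalb required and to 0.746 without CUS mouse 1 (range over mice left out -2.23 to 0.746). The difference in the Yy1 share, 6.1 points thinned, was 7.78 without thinning (p = 0.0286, exact permutation test).

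The 4 genes called in PV nuclei became 10 with the likelihood ratio test, 0 with DESeq2, 0 when only the 387 genes with more UMIs than nuclei were tested, which left out all 4 before the test, 1 without doublet scores above 0.2, 2 with no Slc17a7 UMI, 9 with 45 nuclei per mouse, 1 after thinning and 1 to 11 with a mouse left out. The counts of 10 and 11 include Pvalb, a gene of the rule, whose level is a description. Of the settings chosen after seeing the data, the rule without Pvalb gave 0, leaving out nuclei with glial UMIs gave 2 and the mt-Rnr1 level as a term gave 6. The interaction against Sst nuclei gave 2 with the likelihood ratio test, 4 with no filter and 0 to 2 with a mouse left out. That against Adarb2 nuclei (3) gave 1 with only genes above the number of nuclei, 5 with no filter, 0 without high doublet scores and 1 to 6 with a mouse left out. That against layer 2/3 nuclei (6) gave 1, 0 without high doublet scores and 0 to 5 with a mouse left out. The 1 bulk marker became 4 with the likelihood ratio test, 5 with DESeq2, 3 with library sizes alone, 3 with no filter and 0 to 4 with a mouse left out.

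With the replicate number as a block, 0 genes passed in PV nuclei (344 at an unadjusted p under 0.05) and 0 bulk markers passed. The cause of these changes was not tested. Of 158 named genes, 111 showed no change of sign under any alternative that tested them. Crem, Egr1, Fos, Fosb, Slc17a7 and Ttr are counted in both numbers, although they were not tested in the main setting and had no sign to keep. With 45 to 122 PV nuclei per mouse, genes of few UMIs rest on single nuclei.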
